A study of Mus musculus with 24 samples.

Results

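The genes described are 10 genes of B-lineage commitment and lymphoid priming: *Ebf1*, *Pax5*, *Cd79a*, *Cd79b*, *Vpreb1*, *Igll1*, *Blnk*, *Jchain*, *Dntt* and *Rag1*. They were taken by symbol from the 55487 genes listed in the expression tables, each symbol matching 1 gene, and 8 of the 10 passed the filter for testing in each experiment. The study used Cas9-LP lines, lymphoid progenitors derived from mouse fetal liver, to ask how RUNX factors, their shared partner Cbfβ, CTCF and Med12 act at the start of the T-lineage program. QuantSeq, which reads the 3′ end of polyadenylated mRNA, was run on 24 libraries, 3 in each of 8 groups.

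All groups, controls included, were Ebf1-deficient and carried the Rosa26-Cas9 knock-in, were grown with SCF, Flt3L and IL-7, and were sorted as hNGFR+CD45+ cells 5 days after transduction of an sgRNA-hNGFR retrovirus. In experiment 1, LPs kept on OP9 stroma and Phase 1 cells, LPs moved to OP9-DLL4 stroma for Notch stimulation, carried sgControl or sgCbfb. In experiment 2, LPs on OP9 carried sgControl, sgCbfb, sgCTCF or sgMed12. sgControl targets luciferase, and each target gene was hit by a pool of sgRNA vectors, so a group is a mixed population of edited cells from an established line. The labels do not say whether replicates were separate cultures, so the P values measure the spread between these libraries.

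B-cell development is set up by a cascade in which E2A, encoded by *Tcf3*, and IL-7 receptor signaling lead to *Ebf1*, and *Ebf1* then activates *Pax5*, the factor that fixes B-cell identity, together with the genes of the pre-B cell receptor. Before commitment, lymphoid progenitors already transcribe recombination genes: *Rag1* encodes part of the recombinase that cuts immunoglobulin and T-cell receptor genes, and *Dntt* encodes terminal deoxynucleotidyl transferase (TdT), which adds bases at the joints. *Jchain*, which encodes the joining chain of secreted IgM and IgA, is also transcribed in some early lymphoid progenitors and in plasmacytoid dendritic cells (pDCs).

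The promoters of the genes called with sgCbfb in every comparison with sgControl, and of *Blnk*, which lies beside *Dntt*, are shown so that the motif of the targeted RUNX-Cbfβ complex can be looked for. Each is the 250 bases before the start given by RefSeq (GRCm38.p6), 5′ to 3′ on the strand of the gene, with the RUNX core letters TGTGGT or TGCGGT, searched on both strands, in capitals.
*Jchain* (chr5:88527898-88528147, minus strand): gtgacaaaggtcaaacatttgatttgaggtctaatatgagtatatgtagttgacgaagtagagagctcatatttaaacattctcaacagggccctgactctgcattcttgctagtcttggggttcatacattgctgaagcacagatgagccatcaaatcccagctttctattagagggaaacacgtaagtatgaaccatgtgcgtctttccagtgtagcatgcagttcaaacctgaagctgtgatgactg
*Dntt* (chr19:41029025-41029274, plus strand): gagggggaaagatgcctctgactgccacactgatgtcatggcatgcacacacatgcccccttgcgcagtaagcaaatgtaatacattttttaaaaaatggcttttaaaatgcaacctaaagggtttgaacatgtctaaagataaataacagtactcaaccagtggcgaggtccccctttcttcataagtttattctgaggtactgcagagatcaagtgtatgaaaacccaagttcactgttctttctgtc
*Rag1* (chr2:101649533-101649782, minus strand): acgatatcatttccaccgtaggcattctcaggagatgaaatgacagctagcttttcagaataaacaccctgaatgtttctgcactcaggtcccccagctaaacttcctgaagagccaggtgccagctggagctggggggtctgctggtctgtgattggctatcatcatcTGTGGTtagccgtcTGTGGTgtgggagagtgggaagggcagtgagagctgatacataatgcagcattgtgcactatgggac
*Blnk* (chr19:40994222-40994471, minus strand): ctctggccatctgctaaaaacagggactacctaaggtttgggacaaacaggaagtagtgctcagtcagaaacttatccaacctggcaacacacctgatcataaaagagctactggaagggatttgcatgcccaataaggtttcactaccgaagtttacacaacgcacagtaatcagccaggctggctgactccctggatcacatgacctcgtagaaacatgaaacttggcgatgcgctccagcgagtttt
The *Rag1* window holds TGTGGT at 2 places that do not overlap, beginning 81 and 67 bases before the start. The windows of *Jchain*, *Dntt*, *Blnk* and *Pax5* do not hold the letters. RefSeq starts were at hand for 9 of the 10 genes, as 10 windows, and 3 of these held RUNX letters, those of *Rag1*, *Igll1* and one of the starts of *Ebf1*. Of all 32851 windows of this length, 18.6% held them.

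Values are CPM, the share of a library's reads on genes scaled to a common total. The reads on genes were 1363263 to 1743319 per library in experiment 1 and 3354483 to 4326782 in experiment 2. Where no read was seen, the level may still be up to 1.72 to 2.20 CPM or 0.693 to 0.894 CPM in the respective experiment, limits that cover counting error only. Groups in which no library exceeded 3 reads are called at the floor. Differences are limma differences of log2(CPM + 1) with Benjamini-Hochberg adjusted P values over all genes tested, a scale that understates the change of low genes, and folds are ratios of group means. To be called, a gene needed an adjusted P value below 0.05, group means more than 2-fold apart, and more than 10 CPM in the higher mean. In bulk RNA, fewer cells that express a gene and less RNA per cell cannot be told apart. The experiments were normalized separately, so tests were made within each.

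The targeted genes served as a check of the labels. *Cbfb* mRNA was 86.5 ± 9.30 CPM (SD, n = 3) in sgControl and 40.2 ± 5.18 in sgCbfb LPs of experiment 1, and 114.3 ± 8.37 and 48.4 ± 6.93 CPM in experiment 2, both called lower. In Phase 1 cells it was 66.5 ± 19.2 and 53.9 ± 9.69 CPM, with overlapping libraries. *Ctcf* was 391 ± 30.7 CPM with sgControl and 306 ± 30.0 with sgCTCF, means less than 2-fold apart, so it was not called and mRNA is a weak check of the sgCTCF label. *Med12* was 5.14 ± 1.26 CPM with sgControl and 7.01 ± 3.38 with sgMed12, so mRNA does not check the sgMed12 label. The overlapping *Cbfb* libraries do not check the sgCbfb label in Phase 1 cells either. Immunoblots for Cbfβ, CTCF and Med12 protein are shown in the paper for Cas9-LPs, with Phase 1 cells not named. They were made at an earlier day after sgRNA transduction than these libraries and were not used here. The 3′ reads also do not show the part of *Ebf1* that the mutant allele lacks. Replicate 3 of the sgControl Phase 1 cells and replicate 2 of sgMed12 stood apart from the other libraries of their groups, and leaving out either changed no count of called genes among the 10. Of 6 lymphoid progenitor markers, *Flt3*, *Il7r*, *Ptprc*, *Cd44* and *Kit* were above the floor in every group, with *Kit* lowest at 20.01 ± 7.20 CPM with sgCTCF. The sixth, *Ly6d*, was at 144 ± 24.7 CPM in sgControl and 1.37 ± 0.773 CPM, at the floor, in sgCbfb LPs of experiment 1, and at 109.9 ± 30.0 and 1.42 ± 1.37 CPM in those of experiment 2. The B-cell genes *Ms4a1*, *Cr2* and *Fcer2a* were at the floor in all 8 groups, whereas *Cd22* was above it in 3, in Phase 1 cells at 6.26 ± 0.932 CPM with sgControl and 10.2 ± 2.97 with sgCbfb, and at 1.72 ± 2.98 CPM in sgCbfb LPs of experiment 1.

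The receptor genes were nearly silent. *Cd79a*, which encodes the signaling chain Igα, had 0 reads in all 24 libraries. *Cd79b*, which encodes its partner Igβ, reached at most 6 reads in a library, *Vpreb1* at most 12 and *Igll1*, which with *Vpreb1* encodes the surrogate light chain, at most 5. No group mean of these genes was above 2.47 CPM, none was called in any comparison, and no change is given for them. These levels sit at or near the floor, so differences between groups were not detectable at this depth. Exons of *Vpreb1* and *Top3b* share 108 bases on opposite strands.

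With sgCbfb, 3 of the 8 tested genes were called in each of the 3 comparisons, and they were *Jchain*, lower, and *Dntt* and *Rag1*, higher, every time. The background share of called genes was 1.69% in LPs of experiment 1, 3.52% in Phase 1 cells and 4.33% in LPs of experiment 2. The sum of 6 myeloid markers also moved with sgCbfb in LPs, from 13.0 to 26.0 CPM in sgControl to 30.7 to 44.4 CPM in experiment 1 and from 11.2 to 17.9 to 23.4 to 45.0 CPM in experiment 2, with *Elane* and *Cd14* at 0 in these 4 groups. *Mpo* made the largest part of this rise, from 5.22 ± 3.86 to 16.7 ± 3.40 CPM in experiment 1 and from 5.28 ± 0.992 to 16.8 ± 6.87 CPM in experiment 2. *Itgam* went from 14.0 ± 6.26 to 18.6 ± 6.42 and from 8.56 ± 1.99 to 14.6 ± 2.89 CPM. *Lyz2* was lower in experiment 1 and higher in experiment 2, at no mean above 3.85 CPM. In Phase 1 cells the myeloid sum was 24.5 to 41.1 CPM with sgControl and 19.4 to 34.6 CPM with sgCbfb, which overlap, and its part in the results was not tested. The plot of library values shows no overlap between sgCbfb and sgControl for *Jchain*, *Dntt* and *Rag1* at either stage.

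**Figure D1:**
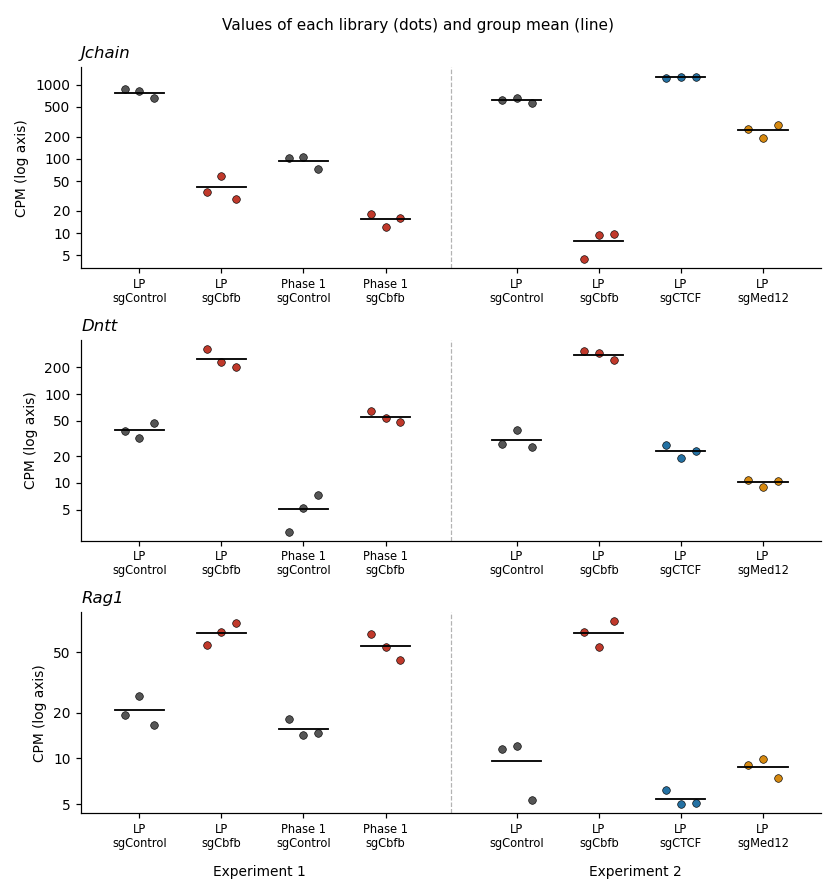
CPM of *Jchain*, *Dntt* and *Rag1* on log axes in each of the 24 libraries, by group (dots, libraries; lines, means of 3; gray, sgControl; red, sgCbfb; blue, sgCTCF; orange, sgMed12). In each stage and experiment the sgCbfb libraries lie below sgControl for *Jchain* and above it for *Dntt* and *Rag1*, and the LP sgCTCF libraries are the highest for *Jchain*, at 1238 to 1283 CPM.

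*Jchain* (ENSMUSG00000067149; GRCm38 chr5:88519809-88527891, minus strand) fell with sgCbfb and with Notch stimulation and had the widest span of folds among the 10 genes. In experiment 1 its values were 862, 815 and 656 CPM in sgControl LPs, 36.0, 58.5 and 29.3 CPM in sgCbfb LPs, 104, 106 and 73.4 CPM in sgControl Phase 1 cells and 18.2, 11.9 and 15.9 CPM in sgCbfb Phase 1 cells. The 4 groups do not overlap, and the order from high to low was sgControl LPs, sgControl Phase 1 cells, sgCbfb LPs and sgCbfb Phase 1 cells. In LPs the mean with sgCbfb was 18.9-fold lower (log2 difference -4.25, standard error 0.23, limma adjusted P = 6.3e-11), and in Phase 1 cells 6.15-fold lower (-2.54, limma adjusted P = 1.1e-07). From LP to Phase 1, *Jchain* was 8.25-fold lower with sgControl (limma adjusted P = 5.5e-09) and 2.69-fold lower with sgCbfb (limma adjusted P = 0.0012).

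The sgCbfb effect on *Jchain* differed between the stages. The interaction, the effect in Phase 1 minus that in LPs, was 1.71 on the log2 scale (standard error 0.32, limma adjusted P = 0.0061). *Jchain* was the 1 gene of the 8 called, beside 1.19% of all tested genes called in either direction and 0.589% called higher. The fall was smaller on the log scale in Phase 1 cells, which started from 94.3 ± 18.2 CPM (SD, n = 3) and not from 778 ± 108 CPM.

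In experiment 2 the *Jchain* values were 613, 665 and 570.1 CPM with sgControl, 4.47, 9.39 and 9.82 CPM with sgCbfb, 1238, 1283 and 1268 CPM with sgCTCF and 254, 191 and 284 CPM with sgMed12. The order was sgCTCF, sgControl, sgMed12 and sgCbfb, and no neighbours in it overlap. With sgCbfb the mean was 78.0-fold lower (log2 difference -6.18, standard error 0.17, limma adjusted P = 1.7e-18), with sgMed12 it was 2.53-fold lower (-1.35, limma adjusted P = 7.2e-05) and with sgCTCF 2.05-fold higher (1.04, limma adjusted P = 2.2e-04). The sgCTCF call is at the edge of the fold threshold: without sgControl replicate 3 the difference was 0.98 and was not called, at a limma adjusted P = 0.003, over a range of 4.2e-12 to 0.0045 for the alternatives. Without sgMed12 replicate 2 the sgMed12 difference was -1.19.

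pDC markers moved with *Jchain* in part. The sum of 8 markers was 1916 to 2072 CPM in sgControl LPs and 699 to 762 CPM in sgCbfb LPs of experiment 1, 499 to 735 and 443 to 517 CPM in sgControl and sgCbfb Phase 1 cells, and 1229 to 1604 and 500 to 898 CPM in sgControl and sgCbfb LPs of experiment 2. It was 1385 to 1681 CPM with sgCTCF and 1131 to 1841 CPM with sgMed12, ranges that overlap sgControl while *Jchain* does not. *Klk1* was at 0 in every group, *Siglech*, a defining marker, had a mean of at most 3.5 CPM and was at the floor in all 3 sgCbfb groups, and *Ccr9*, *Cox6a2* and *Tcf4* carried most of the sum. With sgCbfb in LPs, means fell for *Ccr9* (989 to 235 and 534 to 26.9 CPM in experiments 1 and 2), *Cox6a2* (589 to 171 and 534 to 81.2) and *Irf8*. Those of *Tcf4* (215 to 236 and 195 to 259) and *Irf7* (6.09 to 11.0 and 3.44 to 63.3) rose, and *Bst2* fell in experiment 1 and rose in experiment 2. In Phase 1 cells *Ccr9* was at 131 CPM with sgControl and 58.0 CPM with sgCbfb, *Cox6a2* at 196 and 133, and *Bst2* at 104 and 48.8. The means of *Irf7* and *Siglech* were also lower with sgCbfb there. *Irf8* was at 62.1 and 64.6 CPM, and *Tcf4* was at 122 CPM with sgControl and 179 CPM with sgCbfb. The part of pDC-like cells in the *Jchain* result was not tested. Of 4 plasma cell markers, *Mzb1* was at 0 in all groups and *Sdc1* carried the sum, at 56.1 to 56.5 CPM in sgControl and 25.0 to 34.6 CPM in sgCbfb LPs of experiment 1, and 3.23 to 12.5 and 33.1 to 35.4 CPM in sgControl and sgCbfb Phase 1 cells. In experiment 2 that sum was 61.9 to 87.1 CPM with sgControl, 23.3 to 32.7 with sgCbfb, 88.3 to 101 with sgCTCF and 28.2 to 33.8 with sgMed12, and its part in the result was not tested.

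**Figure D2:**
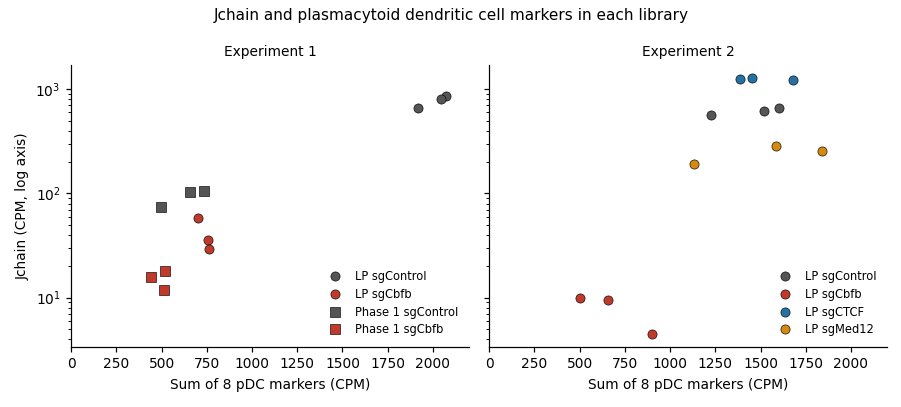
*Jchain* (CPM, log axis) against the summed CPM of 8 pDC markers in each library, for experiment 1 (left) and experiment 2 (right); circles are LPs and squares Phase 1 cells, with colors by sgRNA. In experiment 2 the sgControl, sgCTCF and sgMed12 libraries overlap in their marker sums and separate on the *Jchain* axis.

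*Dntt* (ENSMUSG00000025014; GRCm38 chr19:41029275-41059525, plus strand) went the opposite way with sgCbfb and the same way with Notch. Its values were 38.4, 32.2 and 47.5 CPM in sgControl LPs, 322, 229 and 202 CPM in sgCbfb LPs, 2.82, 5.16 and 7.34 CPM in sgControl Phase 1 cells and 64.2, 54.0 and 48.3 CPM in sgCbfb Phase 1 cells. The sgCbfb Phase 1 libraries are all above the sgControl LP libraries. The mean was 6.38-fold higher with sgCbfb in LPs (log2 difference 2.63, standard error 0.27, limma adjusted P = 2e-06) and 10.9-fold higher in Phase 1 cells (3.27, limma adjusted P = 4.4e-08). From LP to Phase 1 it was 7.71-fold lower with sgControl (limma adjusted P = 3.2e-07) and 4.52-fold lower with sgCbfb (limma adjusted P = 4.2e-05). The sgControl Phase 1 libraries held only 4 to 10 reads of *Dntt* each, near the floor, so the 10.9-fold and 7.71-fold values are imprecise. The sum of 7 early T-cell markers was 97.2 to 138 CPM in sgControl LPs, 671 to 894 CPM in sgControl Phase 1 cells, 49.9 to 70.5 CPM in sgCbfb LPs and 92.4 to 104 CPM in sgCbfb Phase 1 cells, and its part in the stage differences was not tested. In LPs the lower marker sum with sgCbfb was mostly *Bcl11b*, at 76.3 ± 12.2 CPM with sgControl and 13.6 ± 6.26 with sgCbfb. *Gata3* was at 33.2 ± 4.96 and 36.9 ± 1.68 CPM. In these LPs of experiment 1 the means of *Tcf7*, *Cd3e* and *Cd3g* were also not lower with sgCbfb, and those of *Cd3d* and *Ptcra* were. The *Dntt* interaction of 0.64 (standard error 0.38) was not called, at a limma adjusted P = 0.60.

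In experiment 2, *Dntt* was at 27.2, 39.3 and 25.3 CPM with sgControl, 303, 287 and 243 CPM with sgCbfb, 26.8, 19.2 and 22.9 CPM with sgCTCF and 10.7, 9.01 and 10.5 CPM with sgMed12. The sgCbfb libraries are far above the rest, the sgControl and sgCTCF libraries overlap, and the sgMed12 libraries are below all others. The rise with sgCbfb was 9.08-fold (log2 difference 3.16, standard error 0.17, limma adjusted P = 5.1e-13) and the fall with sgMed12 3.03-fold (-1.49, limma adjusted P = 3e-05). The difference with sgCTCF was -0.38 (limma adjusted P = 0.18). *Dntt* was called in 9 of the 11 comparisons, the exceptions being sgCTCF against sgControl and the interaction.

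*Rag1* (ENSMUSG00000061311; GRCm38 chr2:101638282-101649501, minus strand) followed *Dntt* with sgCbfb but not with Notch. Its values were 19.5, 26.0 and 16.7 CPM in sgControl LPs, 56.4, 68.3 and 77.8 CPM in sgCbfb LPs, 18.4, 14.2 and 14.7 CPM in sgControl Phase 1 cells and 66.1, 54.0 and 44.8 CPM in sgCbfb Phase 1 cells. The stages overlap with either sgRNA, and neither stage difference was called (limma adjusted P = 0.46 with sgControl and 0.73 with sgCbfb). With sgCbfb the mean was 3.26-fold higher in LPs (log2 difference 1.67, standard error 0.25, limma adjusted P = 2.6e-04) and 3.49-fold higher in Phase 1 cells (1.73, limma adjusted P = 1e-04), and the interaction was 0.07 with a standard error of 0.36 (limma adjusted P = 0.98). The exons of *Rag1* share 80 bases with *B230118H07Rik* on the same strand, where reads of the 2 genes cannot be told apart.

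In experiment 2, *Rag1* was at 11.6, 12.1 and 5.36 CPM with sgControl, 68.6, 54.2 and 80.1 CPM with sgCbfb, 6.17, 5.01 and 5.08 CPM with sgCTCF and 9.04, 9.88 and 7.38 CPM with sgMed12. The sgCbfb group stands above the other groups, 6.98-fold over sgControl (log2 difference 2.74, standard error 0.26, limma adjusted P = 1.8e-08), and sgControl overlaps both sgCTCF and sgMed12. The sgCTCF difference of -0.67 was not called (limma adjusted P = 0.11), and sgControl replicate 3, the lowest of its group, decides this: without it the difference was -1.01 and was called, at a limma adjusted P = 0.014, over a range of 0.014 to 0.36 for the alternatives. The sgMed12 difference was -0.07 (limma adjusted P = 0.91).

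With sgCTCF, 3 of the 8 tested genes were called, *Pax5*, *Blnk* and *Jchain*, all higher, beside 2.43% of all genes called in either direction and 1.81% called higher. The sum of the 7 early T-cell markers was 61.6 to 94.8 CPM with sgControl, 117 to 137 CPM with sgCTCF, 25.4 to 30.7 CPM with sgCbfb and 89.8 to 97.1 CPM with sgMed12 in experiment 2, with *Cd3e* at 0 in all 4 groups, and its part in these results was not tested. The fall of this sum with sgCbfb was mostly *Bcl11b*, at 55.1 ± 13.0 CPM with sgControl and 2.95 ± 1.60 with sgCbfb. *Gata3* was at 20.1 ± 4.15 and 23.5 ± 3.39 CPM there. *Tcf7* and *Cd3g* were both at 0 CPM with sgCbfb, beside 2.54 ± 0.796 and 1.63 ± 0.634 CPM with sgControl. The means of *Cd3d* and *Ptcra*, below 1 CPM in both groups, were also lower with sgCbfb. With sgCTCF, *Bcl11b* was at 83.3 ± 13.3 CPM, and *Tcf7* was at 18.0 ± 3.43 CPM, beside 2.54 ± 0.796 with sgControl. With sgMed12, *Jchain* and *Dntt* were called lower, beside 1.03% in either direction and 0.364% lower. That share rests on 136 called genes, a count that was 358 without sgMed12 replicate 2, 61 and 54 without sgMed12 replicates 1 and 3, and 66 without sgControl replicate 2. Comparisons between the edited groups called 5 of the 8 for sgCTCF against sgCbfb (6.87% of all genes), with *Pax5*, *Blnk* and *Jchain* higher and *Dntt* and *Rag1* lower in sgCTCF, 3 for sgMed12 against sgCbfb (4.48%), with *Jchain* higher and *Dntt* and *Rag1* lower in sgMed12, and 4 for sgMed12 against sgCTCF (4.01%, and 2.31% lower), with *Pax5*, *Blnk*, *Jchain* and *Dntt* all lower in sgMed12. These comparisons share libraries. The stage comparisons called *Jchain* and *Dntt* lower in Phase 1, with sgControl (background 3.39%, and 1.74% lower) and with sgCbfb (1.19%, and 0.453% lower).

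**Figure D3:**
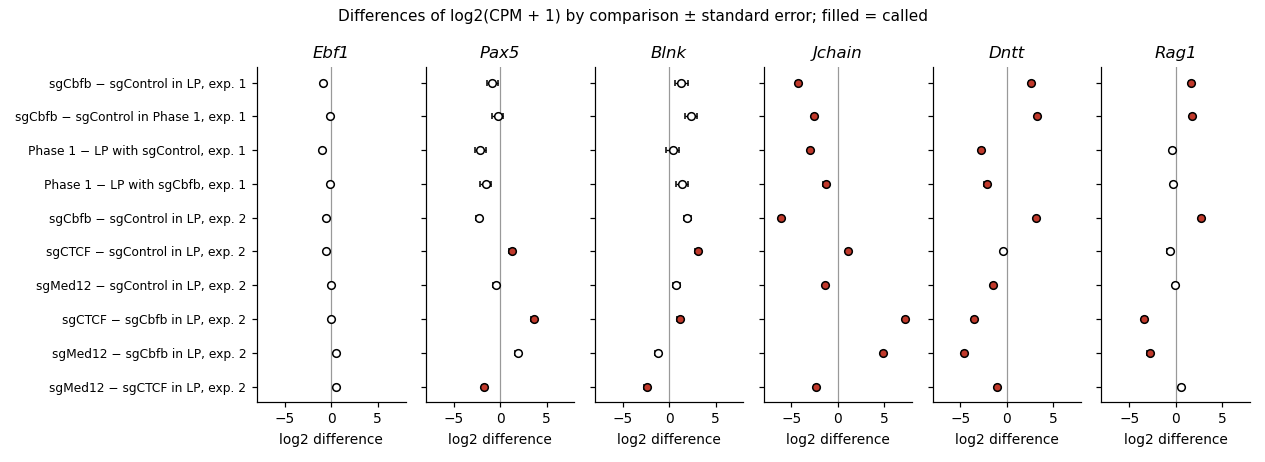
Limma differences of log2(CPM + 1) with standard errors for the 6 genes that had a mean over 10 CPM in some group, by comparison (rows; filled points were called). *Jchain* has filled points in all 10 rows, from -6.18 to 7.22, and *Ebf1* in none.

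*Pax5* (ENSMUSG00000014030; GRCm38 chr4:44524757-44710487, minus strand) was a low gene whose highest group was sgCTCF. In experiment 2 its values were 6.59, 9.16 and 9.98 CPM with sgControl, 1.49, 0.804 and 0.503 CPM with sgCbfb, 21.7, 24.8 and 19.4 CPM with sgCTCF and 4.52, 8.72 and 5.68 CPM with sgMed12. The sgCTCF libraries lie above all others and the sgCbfb libraries below all others, while sgControl and sgMed12 overlap. The mean was 2.56-fold higher with sgCTCF (log2 difference 1.27, standard error 0.30, limma adjusted P = 0.0064). With sgCbfb it was 9.20-fold lower (-2.32, limma adjusted P = 2.7e-06), which was not called since neither mean was over 10 CPM.

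In experiment 1, *Pax5* was at 6.49, 11.8 and 7.71 CPM in sgControl LPs and 9.17, 2.87 and 2.85 CPM in sgCbfb LPs, which overlap (limma adjusted P = 0.69). It was at 0.705, 1.29 and 1.47 CPM in sgControl Phase 1 cells, at the floor, and 2.59, 0.628 and 0 CPM in sgCbfb Phase 1 cells. The sgControl Phase 1 mean was at least 3.93-fold below that of LPs (limma adjusted P = 0.028), not called for its level. Exons of *Pax5* overlap those of *Gm12462* by 125 bases and of *5730488B01Rik* by 636 bases, both on the opposite strand.

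*Blnk* (ENSMUSG00000061132; GRCm38 chr19:40928927-40994535, minus strand), which encodes an adaptor of B-cell receptor signaling, rose from the floor with sgCTCF. In experiment 2 it was at 0.527, 0.886 and 0.487 CPM with sgControl, 2 or 3 reads in each library, 3.88, 7.78 and 5.04 CPM with sgCbfb, 10.7, 18.7 and 11.8 CPM with sgCTCF and 0.847, 2.62 and 2.27 CPM with sgMed12. The groups sgCTCF, sgCbfb and sgMed12 do not overlap, in that order, and sgMed12 overlaps sgControl. Against the floor of sgControl the sgCTCF mean was at least 15.5-fold higher (limma adjusted P = 1.3e-06) and the sgCbfb mean at least 6.28-fold higher (limma adjusted P = 2e-04), the second under the level for a call. In LPs of experiment 1 the groups overlap, at 1.18, 0 and 0 CPM with sgControl and 0.705, 1.72 and 6.42 CPM with sgCbfb (limma adjusted P = 0.47).

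The sgCTCF mean of *Blnk* was 2.47-fold that of sgCbfb (log2 difference 1.17, limma adjusted P = 0.016), a call that was lost under 5 alternatives, with adjusted P values over a range of 0.0017 to 0.11. Among these it was not called without sgCbfb replicate 1 (limma adjusted P = 0.086), without sgCbfb replicate 3 (0.053) and without sgCTCF replicate 2 (0.11). In Phase 1 cells *Blnk* was at 0, 3.87 and 0 CPM with sgControl and 5.19, 11.9 and 7.07 CPM with sgCbfb, with a limma adjusted P = 0.042 and an edgeR quasi-likelihood adjusted P = 0.20, within a range of 0.0076 to 0.20 for the alternatives, and it was not called.

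**Figure D4:**
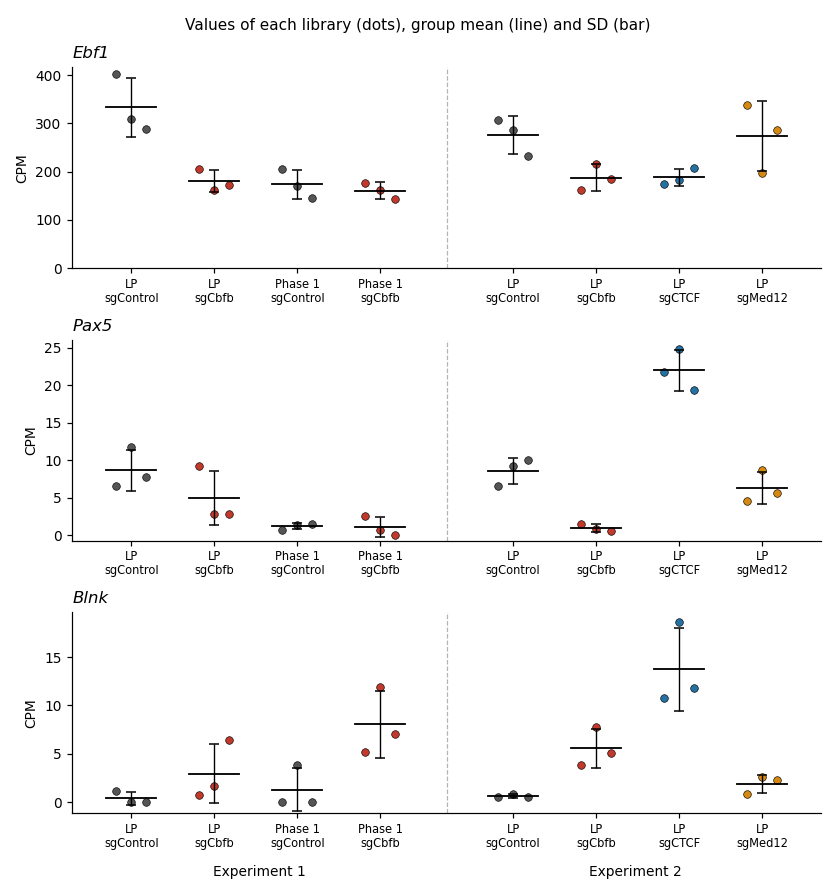
CPM of *Ebf1*, *Pax5* and *Blnk* in each library on linear axes (dots, libraries; lines, means of 3; bars, SD; colors by sgRNA). *Pax5* and *Blnk* are highest in the sgCTCF libraries, at 19.4 to 24.8 and 10.7 to 18.7 CPM, and *Ebf1* spans 143 to 403 CPM over all libraries.

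*Ebf1* (ENSMUSG00000057098; GRCm38 chr11:44617317-45008091, plus strand) reads were abundant in every library of these Ebf1-deficient cells, and the gene was called in no comparison. In experiment 1 its values were 403, 309 and 289 CPM in sgControl LPs, 205, 163 and 173 CPM in sgCbfb LPs, 205, 170.3 and 146 CPM in sgControl Phase 1 cells and 177, 163 and 143 CPM in sgCbfb Phase 1 cells. The sgControl LPs are above the other groups, which overlap each other. The log2 difference was -0.87 with sgCbfb in LPs (standard error 0.16, limma adjusted P = 0.0014) and -0.94 from LP to Phase 1 with sgControl (limma adjusted P = 3.6e-04), each less than 2-fold.

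The *Ebf1* stage difference was near the fold threshold, and without LP sgControl replicate 3 or Phase 1 sgControl replicate 1 it was -1.03 or -1.06 and called, at limma adjusted P = 7.2e-04 and 1.4e-04, over a range of 2e-05 to 0.0055. Its interaction was 0.77 (limma adjusted P = 0.11); without Phase 1 sgControl replicate 1 it was 0.90 and called, at a limma adjusted P = 0.041, over a range of 0.023 to 0.29. In experiment 2, *Ebf1* was at 308, 287 and 233 CPM with sgControl, 161, 216 and 185 CPM with sgCbfb, 175, 182 and 208 CPM with sgCTCF and 339, 197 and 286 CPM with sgMed12. The sgCbfb and sgCTCF libraries are below sgControl, by 1.47-fold (limma adjusted P = 0.013) and 1.46-fold (limma adjusted P = 0.019), and the sgMed12 libraries, with replicate 2 lowest, overlap all groups.

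Other genes of these pathways were followed through 5 lists with 51 genes, of which 40 were tested in experiment 1 and 39 in experiment 2. With sgCbfb, 2 were called higher and 3 lower in LPs of experiment 1 (background 1.69%), 3 higher and 2 lower in Phase 1 cells (3.52%), and 2 higher and 4 lower in LPs of experiment 2 (4.33%). With sgCTCF, 3 were called higher and 0 lower (2.43%), and with sgMed12, 0 higher and 1 lower (1.03%). Of 12 recombination partners, *Rag2* alone was called with sgCbfb, in LPs of both experiments, and the median difference of the list was 0.57 and 0.08 there, beside 0.00 and -0.01 over all genes.

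*Rag2*, which encodes the partner of RAG1 in the recombinase, was at 14.2, 10.5 and 11.6 CPM in sgControl LPs and 36.0, 47.0 and 30.0 CPM in sgCbfb LPs of experiment 1. The groups do not overlap, and the log2 difference was 1.55 (limma adjusted P = 0.0039). In experiment 2 it was at 10.8, 12.1 and 14.6 CPM with sgControl and 27.1, 24.1 and 30.2 CPM with sgCbfb, a log2 difference of 1.06 (limma adjusted P = 0.0033). In Phase 1 cells the groups overlap, at 20.5 ± 1.86 CPM (SD, n = 3) with sgControl and 23.4 ± 7.20 CPM with sgCbfb (limma adjusted P = 0.87), where *Rag1* was 3.49-fold higher. *Rag2* lies 5753 bases from *Rag1*, and its exons overlap those of *B230118H07Rik* by 208 bases on the opposite strand.

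*Bcl11a*, a transcription factor of lymphoid progenitors, was called lower with sgCbfb in LPs of both experiments, from 136 ± 18.8 to 68.0 ± 14.7 CPM and from 116 ± 27.5 to 57.7 ± 0.929 CPM (SD, n = 3), and higher in Phase 1 cells, from 221 ± 8.99 to 464 ± 23.4 CPM. *Tcf3* was called in no comparison and stayed between group means of 102 and 150 CPM. *Il7r*, the receptor chain for IL-7, was called in 1 comparison, at 205 ± 9.05 CPM with sgCTCF and 101 ± 12.3 CPM with sgCbfb. *Flt3*, the receptor for Flt3L, fell from LP to Phase 1, from 273 ± 15.6 to 36.1 ± 20.4 CPM with sgControl and from 260 ± 64.2 to 98.5 ± 14.0 CPM with sgCbfb. The 3 genes called higher with sgCTCF were *Foxo1*, *Spib* and *Irf4*, transcription factor genes named after their values were seen, at 25.7, 26.6 and 17.7 CPM with sgCTCF and 4.77, 8.87 and 4.54 CPM with sgControl. *Foxo1* was also called higher with sgCbfb against sgControl in experiment 2, and was not called for sgCTCF against sgCbfb. *Spib* and *Irf4* were called higher in that last comparison.

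The nearest tested genes were examined for those called in 3 or more comparisons. *Blnk* and *Dntt* are such neighbours, 34740 bases apart on chromosome 19, and with sgCbfb in experiment 2 the log2 differences were 1.97 for *Blnk*, under the level for a call, and 3.16 for *Dntt*. With sgCTCF they were 3.14 for *Blnk*, called, and -0.38 for *Dntt*, not called. Toward lower coordinates from *Jchain*, 13760 bases away, *Enam*, an enamel protein gene, was at 13.0, 14.9 and 4.495 CPM in sgControl LPs of experiment 1 and at 13.7, 10.6 and 11.4 CPM in those of experiment 2, and had 0 reads in all 6 sgCbfb LP libraries. In LPs it was at least 5.04-fold and 13.3-fold lower with sgCbfb (limma adjusted P = 0.002 and 1.5e-09). With sgMed12 *Enam* was at 3.96 to 5.23 CPM, below sgControl as for *Jchain*. With sgCTCF it was at 7.24 to 13.2 CPM, which overlaps sgControl, where *Jchain* was higher. In Phase 1 cells the *Enam* groups overlap near the floor, at 0.705 to 3.67 CPM with sgControl and 0 to 3.89 CPM with sgCbfb, where those of *Jchain* do not. *Utp3*, a ribosome biogenesis gene 26571 bases away toward higher coordinates, was at 417 ± 33.8 CPM with sgControl, 226 ± 13.8 with sgCbfb, 631 ± 59.4 with sgCTCF and 281 ± 11.3 with sgMed12 in experiment 2 (SD, n = 3), the same order of groups as *Jchain*, with each change from sgControl under 2-fold. In experiment 1 the order differed from that of *Jchain*: *Utp3* was lowest in sgCbfb LPs, at 249.5 ± 32.7 CPM beside 387 ± 36.2 in sgControl LPs, and the Phase 1 groups overlap, at 294 ± 40.3 CPM with sgControl and 281 ± 32.1 with sgCbfb. The remaining neighbours apart from *Rag2* were *Melk* and *Zcchc7* beside *Pax5*, *Zfp518a* beside *Blnk*, *Tm9sf3* beside *Dntt* and *Traf6* beside *Rag1*. None of them was called for sgCbfb, sgCTCF or sgMed12 against sgControl, with log2 differences from -0.96 for *Melk* with sgCbfb in LPs of experiment 1 to 0.63 for *Zfp518a* with sgCbfb in Phase 1 cells.

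**Figure D5:**
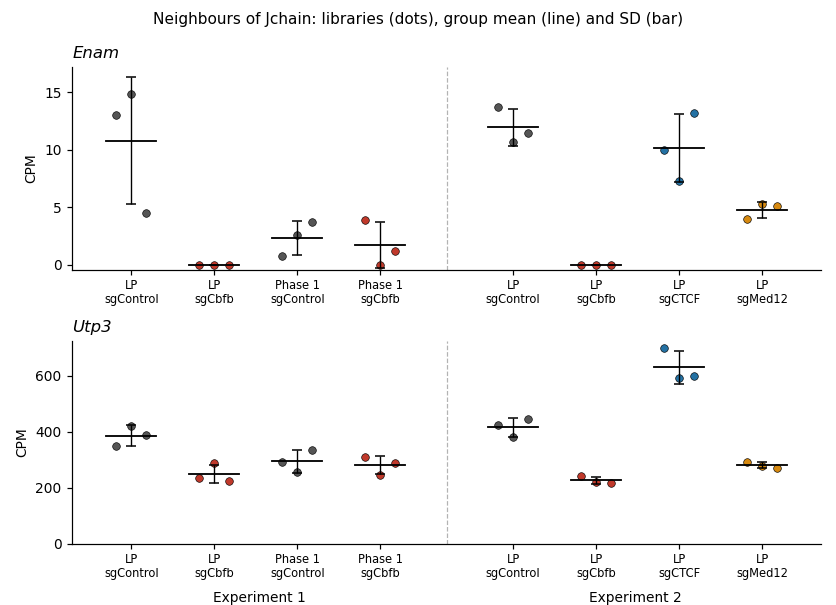
CPM of *Enam* and *Utp3*, the tested genes on either side of *Jchain*, in each library on linear axes (dots, libraries; lines, means of 3; bars, SD; colors by sgRNA). *Enam* is at 0 in the 6 sgCbfb LP libraries, and *Utp3* is lowest in sgCbfb and highest in sgCTCF in experiment 2.

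The genes whose levels ran most alike were ranked by Pearson's r over the 12 libraries of each experiment, taking the lower r, among 8621 genes, as a description in which libraries and groups are shared. For *Jchain* these were *Actr3b* (r = 0.973 and 0.985 in experiments 1 and 2), *Iqgap2* (0.935 and 0.948) and *Cox6a2* (0.964 and 0.922). For *Dntt* they were *Macroh2a1* (0.976 and 0.990), *Cd93* (0.973 and 0.976) and *Dlk1* (0.927 and 0.992), and for *Rag1* they were *Mrc1* (0.972 and 0.962), *Retreg1* (0.962 and 0.958) and *F13a1* (0.955 and 0.962). *Pax5* ran most like *C1ql2*, *Il7r* and *Slc25a51*, and *Blnk* most like *Scpep1*, *Cd2ap* and *Plxnc1*, with the lower r from 0.805 to 0.882.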

How the data were processed

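Per the labels, fastp, STAR and mm10 were used on the reads. The authors deposited 1 CPM value per gene and library, under the name TPM; the counting tool and its strand setting are not given in the sources used here. Low values step by what 1 read is worth, so reads were recovered (100.0% whole, within 0.0025 CPM). A gene was tested if 3 or more libraries of the experiment had at least 1 CPM (13239 and 13177 genes), on log2(CPM + 1) with limma 3.58.1 in R 4.3.3, all 4 groups in 1 fit with a variance trend, and Benjamini-Hochberg adjustment; for the interaction, a mean over 10 CPM in any group and no fold was asked. Scripts were tested on simulated data. Names, positions and overlaps are from GENCODE M21. Alternatives were pseudocounts of 0.1 and 5, no filter, TMM scaling, only the groups compared, a replicate block, edgeR 4.0.16 (quasi-likelihood, TMM) on the recovered reads, no fold threshold, and each library left out in turn. The 10 genes, the lists and the markers were chosen with earlier results of these data known. Other genes named are the sgRNA targets, *Rag2*, *Il7r*, *Flt3*, *Tcf3*, up to 3 genes per list called in the same direction with sgCbfb in LPs of both experiments, neighbours, the 3 genes most alike, genes of the marker lists, and *Foxo1*, *Spib* and *Irf4*, chosen after their values were seen. Deviations of same-numbered libraries correlated at -0.04 to 0.14 in experiment 1 and -0.13 to 0.22 in experiment 2. Replicate numbers were taken as pairs where all 3 correlations between a pair of groups were over 0.1, which held for sgCbfb and sgCTCF in experiment 2 (0.100, 0.124 and 0.133), where the replicate block changed no call among the 10 genes. Per experiment, 1 line without a gene identifier was left out; no other data of the study were used here.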

Additional observations from a re-analysis of the deposited data

Results flagged for a closer look

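The sgCbfb effect on *Jchain* differed between LPs and Phase 1 cells by a test of the difference itself. The interaction was 1.71 on the log2(CPM + 1) scale (standard error 0.32, limma adjusted P = 0.0061). On the recovered reads, edgeR's quasi-likelihood test gave 1.55 (adjusted P = 0.0018). *Jchain* was lower with sgCbfb at both stages, by -4.25 in LPs and by -2.54 in Phase 1 cells. Over the alternatives the adjusted P value ranged from 2.8e-04 to 0.033.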

How the results depend on the processing

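Changes were followed for the 6 genes that reached more than 10 CPM in the mean of some group, 66 changes in all, of which 31 were called. Under the alternatives the called changes kept their direction in all 618 values, and the call was lost in 6 of them, for 2 changes. These were sgCTCF against sgCbfb for *Blnk*, at a pseudocount of 0.1 (1.30), without the filter (1.17) and without 1 of 3 libraries (0.94 to 1.13), and sgCTCF against sgControl for *Jchain* without sgControl replicate 3 (0.98). The counts of called genes among the 10 stayed within 1.5 times in every comparison but the interaction, which called 2 and not 1 under the replicate block, where *Ebf1* joined (0.77, limma adjusted P = 0.023, over a range of 0.023 to 0.29), and 1 to 2 with each library left out, with 2 without Phase 1 sgControl replicate 1. The block left the other counts the same. Of the same-numbered pairs, 2 of 18 in experiment 1 and 6 of 18 in experiment 2 correlated over 0.1, against 0 and 2 of 36 others. Outside sgCbfb and sgCTCF in experiment 2 the numbers were not taken as pairs, and whether those libraries share a batch was not tested. For sgControl and sgCbfb in experiment 2, the same-numbered correlations were 0.047, 0.216 and 0.179. Over all genes, 136 were called for sgMed12 against sgControl, 54 without the filter, 57 with only the groups compared and 54 to 358 with each library left out, and for the sgCbfb stage difference 158, or 245 with only the groups compared. Without the fold threshold the counts rose by over 1.5 times in 8 comparisons, to 822 for sgMed12 against sgControl. Changes that were not called took the other sign in 17 values, for 9 changes, and the cause was not tested. For *Ebf1* with sgMed12 against sgControl the difference was 0.0011 with TMM scaling, 0.034 with edgeR and -0.21 to 0.18 with each library left out. With each library left out, *Ebf1* was at -0.090 to 0.12 for sgCTCF against sgCbfb and -0.22 to 0.024 for sgCbfb in Phase 1 cells, *Pax5* at -0.74 to 0.18 for sgCbfb in Phase 1 cells, *Blnk* at -0.37 to 0.77 for the sgControl stage difference, and *Rag1* at -0.40 to 0.12 for sgMed12 against sgControl and -0.10 to 0.20 for the interaction. The interaction was -0.084 for *Pax5* at a pseudocount of 0.1 and -0.14 for *Blnk* with edgeR. Depth limits the receptor genes most, since a level of up to 2.20 CPM can give no read in the shallowest library.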
